A study of Mus musculus with 6 samples.

Results

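Open chromatin of splenic Tregs was profiled by ATAC-seq, and 5585 accessible regions of control Tregs had no accessible region of CREB-deficient Tregs within 2 kb of either edge. They are called isolated regions here. They were selected on measured values: a region was isolated because the peak list of CREBfl/fl Tregs held a peak there and the list of Foxp3creCREBfl/fl Tregs held none nearby. The isolated regions made up 6.43% of the 86922 CREBfl/fl regions on chromosomes 2 to 14 and 16 to 19. All values refer to these chromosomes, except the check of the cell type, the genome backgrounds, the checks of the peak lists and a count given for all chromosomes. Of the others, 72716 overlapped a Foxp3creCREBfl/fl region and 8621 did not overlap one but had one within 2 kb. By the same rule in the other direction, 2136 of 81445 Foxp3creCREBfl/fl regions were isolated, which is 2.62%. The absence of a counterpart is what the rule used and is therefore no finding.

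Both groups were C57BL/6 mice of 6 to 12 weeks. The controls, denoted CREBfl/fl, carried the floxed CREB alleles without Cre. In Foxp3creCREBfl/fl mice a Cre recombinase expressed from the Foxp3 locus deletes CREB in Foxp3+ cells, so that CREB is present in other cells of both groups and before Foxp3 is expressed. The labels give 3 libraries per group, the methods describe sequencing in duplicate, and 1 peak list per group was analysed. A difference between mice could therefore not be tested, and intervals are Wilson 95% intervals or order-statistic 95% intervals of a median, which cover counting error only. Because the cells were profiled in bulk, fewer cells with an open region and less opening per cell cannot be told apart. As a check of the cell type, the start sites of 6 of 6 Treg and T cell markers (Foxp3, Il2ra, Ctla4, Ikzf2, Cd4 and Cd3e) had a region within 1 kb in both lists.

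In ATAC-seq a transposase cuts DNA that is not covered by nucleosomes, and promoters and enhancers appear as sites where fragments pile up. CREB is a transcription factor that is activated by cyclic AMP and antigen receptor signals and binds the cyclic AMP response element (CRE) or its half-site. The NR4A proteins are orphan nuclear receptors that antigen receptor signals induce in T cells, and the end of their element, AGGTCA, is shared by the elements of many other nuclear receptors.

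The following sequences carry the motifs on which the results turn. They are read from GRCm38, 5′ to 3′. Those of the first and second set are centred on the motif, which lies within 100 bases of the summit, the base with the most fragments. In the first set the middle of the motif was 27.5 to 66.5 bases from the summit, so that the printed bases do not reach the summit. In the first set the capitals mark the NR4A element AAAGGTCA, the binding site of the NR4A orphan nuclear receptors, and each sequence is written on the strand that reads this element. Shown are the 8 isolated regions with the element that had the largest fold over background, chosen after their values were seen and named by the nearest protein-coding start site.
Ly75, chr2:60370337-60370384, reverse strand: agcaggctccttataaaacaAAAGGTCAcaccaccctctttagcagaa
Rgs9, chr11:109275457-109275504, forward strand: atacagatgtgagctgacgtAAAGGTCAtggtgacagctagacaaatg
Xpo6, chr7:126212994-126213041, forward strand: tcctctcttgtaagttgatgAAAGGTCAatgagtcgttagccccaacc
Peli2, chr14:48041322-48041369, reverse strand: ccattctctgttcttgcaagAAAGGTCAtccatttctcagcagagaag
Plcl2, chr17:50636150-50636197, forward strand: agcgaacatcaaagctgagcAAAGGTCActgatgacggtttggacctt
Adcy5, chr16:35103309-35103356, forward strand: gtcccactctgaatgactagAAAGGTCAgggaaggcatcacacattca
Cd83, chr13:43820296-43820343, reverse strand: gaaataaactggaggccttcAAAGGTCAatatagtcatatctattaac
Six3, chr17:85352115-85352162, reverse strand: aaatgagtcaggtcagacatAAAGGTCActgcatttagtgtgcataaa

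In the second set the capitals mark the whole CRE, TGACGTCA, on the forward strand. Shown are the 5 isolated regions with a CRE within 100 bases of the summit that had the largest numbers of fragments there. At Socs1 the CRE lies just outside the called region, and at the other 4 it lies inside.
Socs1, chr16:10782052-10782091: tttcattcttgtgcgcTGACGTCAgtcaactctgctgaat
Dapp1, chr3:138012543-138012582: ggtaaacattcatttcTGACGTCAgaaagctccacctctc
Tmem100, chr11:90094208-90094247: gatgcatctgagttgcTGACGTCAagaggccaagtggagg
Slc7a13, chr4:19844243-19844282: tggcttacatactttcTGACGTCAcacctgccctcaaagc
Clstn3, chr6:124464762-124464801: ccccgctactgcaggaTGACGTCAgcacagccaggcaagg

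The last sequence holds the summit and 100 bases on either side on the forward strand, of the isolated region with the largest fold over background of all, in an intron of Snd1, which encodes a Tudor domain nuclease. The capitals mark the CRE half-site TGACG.
Snd1 intron, chr6:28929260-28929460: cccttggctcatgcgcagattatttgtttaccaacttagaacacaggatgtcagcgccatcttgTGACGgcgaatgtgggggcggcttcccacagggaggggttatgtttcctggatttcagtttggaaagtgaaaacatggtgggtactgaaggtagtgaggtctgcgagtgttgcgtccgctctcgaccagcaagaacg

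The isolated regions were weak. The pileup, the number of fragments over the summit, had a median of 30 (quartiles 26 and 35, lowest 20, highest 281), compared with 114 in CREBfl/fl regions that overlapped a Foxp3creCREBfl/fl region. The fold, the authors' ratio of pileup to background, had a median of 3.07, compared with 6.85. The genome background was 8.44 fragments in the CREBfl/fl list and 5.09 in the Foxp3creCREBfl/fl list, a ratio of 1.66. Set to the shallower list, the median pileup of the isolated regions was 18.1, and 964 of them (17.3%) had a −log10 p of at least 8. Weak peaks are the ones that a shallower list loses first, and the part of depth in the selection of these regions was not tested.

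The share of isolated regions rose and then fell with fold. They were 3.34% of the 1647 CREBfl/fl regions with a fold under 2 and 8.42% of the 5810 between 2 and 2.5. They were 20.2% of the 9813 CREBfl/fl regions with a fold between 2.5 and 3, 12.1% of the 5684 between 3.5 and 4, and 6.15% of the 8783 between 4 and 5. Above this they fell to 1.32% between 5 and 6 and to 24 of 8547 regions (0.281%) between 6 and 8. Between 8 and 12 there were 6 of 10938, and of the 20900 regions with a fold of at least 12 only the region in Snd1 was isolated, while the other regions in this bin overlapped a Foxp3creCREBfl/fl region.

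**Figure D1:**
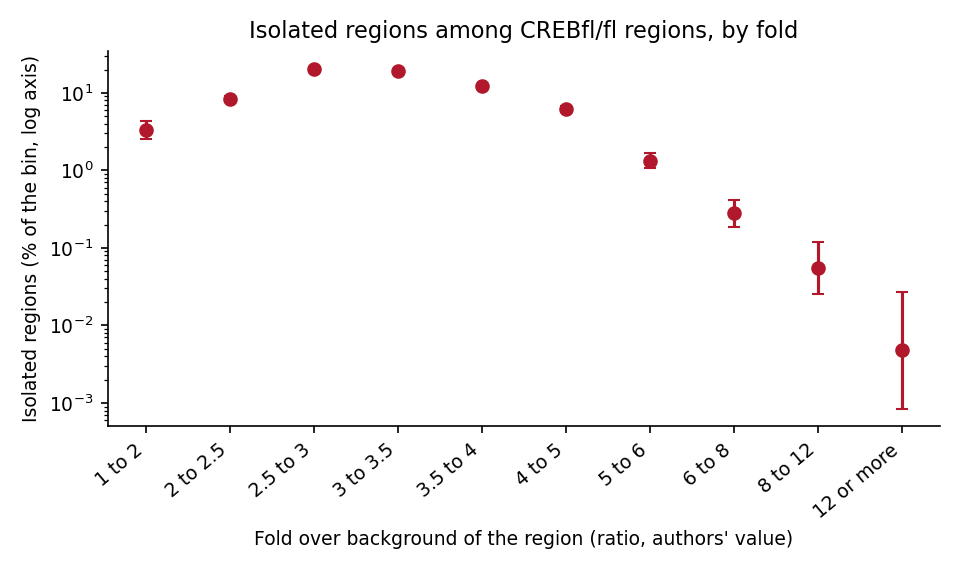
Share of isolated regions among the CREBfl/fl regions (vertical axis, percent, log scale) in bins of fold over background (horizontal axis, the authors' ratio); points are shares and bars are Wilson 95% intervals. The share rose from 3.34% at a fold under 2 to 20.2% at 2.5 to 3 and fell at each step from there on to 1 of 20900 regions at a fold of 12 or more.

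The threshold of 2 kb did not separate regions of different height. Regions whose nearest Foxp3creCREBfl/fl region was 1801 to 2000 bp away had a median pileup of 37, and the 169 regions at 2001 to 2200 bp one of 35. The closest region outside the rule, in Clk3, had a gap of 1999 bp and a pileup of 145, and the closest inside, near Rai1, had a gap of 2002 bp and a pileup of 27. The gap had a median of 7073 bp (quartiles 4070 and 15059), and it was larger than 10 kb in 2035 (36.4%) and larger than 100 kb in 181 isolated regions.

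The isolated regions were narrow and lay away from promoters. Their width had a median of 108 bp (95% interval 107 to 109, range 84 to 875), compared with 310 bp in overlapping regions. When overlapping regions were re-weighted to the pileups of the isolated ones, which is called equal pileup from here on, their median width was 127 bp. CREBfl/fl regions without an overlap but with a Foxp3creCREBfl/fl region within 2 kb had a median width of 105 bp. In isolated Foxp3creCREBfl/fl regions it was 100 bp, so that narrowness was not particular to the isolated CREBfl/fl regions. Widths of at least 300 bp were found in 98 isolated regions (1.75%), compared with 7.98% at equal pileup. Pileup was matched in 10 bins but not within them, and the highest bin reached a pileup of 281. Pileups of at least 100 were found in 1.25% of isolated and 54.8% of overlapping regions. The part of taller overlapping regions of the highest bin in the shares at equal pileup was not tested. Within 1 kb of a protein-coding start site, counted as promoters, lay 252 isolated regions (4.51%, 4.00 to 5.09). The share was 22.3% in overlapping regions and 9.98% at equal pileup. Isolated regions of Foxp3creCREBfl/fl Tregs had a similar share of promoters (4.96%, 4.12 to 5.97). In CREBfl/fl regions without an overlap but with a Foxp3creCREBfl/fl region within 2 kb it was 18.8%. The rule bears on place, since a region within 2 kb of a Foxp3creCREBfl/fl region at a start site cannot be isolated. Equal pileup does not remove this. Outside promoters, 54.8% of the isolated CREBfl/fl regions had the summit in an intron (52.1% at equal pileup), 34.0% between genes (31.0%), 1.93% in a coding exon and 4.73% in another exon. The median distance from the summit to the nearest protein-coding start site was 22392 bp (21236 to 23950), compared with 12553 bp in overlapping regions and 21126 bp at equal pileup. Base composition hardly differed, with a median GC content of 47.8% in the window of 100 bases on either side of the summit, compared with 47.3% at equal pileup. More than 50% of the window was marked as repeat in 11.05% of the isolated regions and in 10.1% at equal pileup.

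The overlapping regions used for equal pileup are weak CREBfl/fl regions that were also called in the shallower list. For this reason sequence motifs were also compared with all CREBfl/fl regions at the same pileups. Each motif was looked for in both strands of the same window as a fixed word without mismatches. The words for CRE and NR4A are those given above, and that of the CRE half-site is TGACG. For AP-1 the word TGAGTCA was searched, and also its other common form, in which the middle base pair is exchanged, TGACTCA. For ETS factors the word was CAGGAAG, and also the form that begins differently, CCGGAAG. The RUNX word was TGTGGTT. For TCF/LEF factors it was CTTTGAA, and also the form with another last base, CTTTGAT. The GATA word was AGATAA and that searched for the NFAT family of factors was TTTCCA. SP/KLF factors were searched by GGGCGGG, while the word for the E-box of the helix-loop-helix and ZEB factors was CAGGTG. Forkhead factors were searched by TGTTTAC, while the word taken for the dimers of STAT factors was TTCNNNGAA, where N is any base. The consensus words of CTCF, IRF and NF-kappa-B are given by name alone. The CRE holds its half-site on both strands, so every CRE region is also counted under the half-site. A word is a match in sequence and does not show binding.

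Of the 16 motifs, the NR4A element had the largest ratio in isolated regions. It was present in 162 of 5585 (2.90%, 2.49 to 3.37), compared with 1.28% in overlapping regions at equal pileup, a ratio of 2.27, with 1.64% in all CREBfl/fl regions at the same pileups and with 1.39% in all CREBfl/fl regions. Among CREBfl/fl regions without an overlap but with a Foxp3creCREBfl/fl region within 2 kb it was 1.58% (1.34 to 1.86). The isolated regions of Foxp3creCREBfl/fl Tregs showed the opposite deviation, with the element in 17 of 2136 (0.796%, 0.498 to 1.27), compared with 1.86% in overlapping Foxp3creCREBfl/fl regions at their pileups. The interval of each group excluded the share of the other.

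The share of the NR4A element was similar in isolated regions with a fold under 3.5 and higher at a fold of 4 or more. It was 2.02% of 544 regions below a fold of 2.5, 2.52% of 1986 between 2.5 and 3, 2.33% of 1717 between 3 and 3.5, and 3.19% of 690 between 3.5 and 4. Between 4 and 5 it was 29 of 540 (5.37%, 3.76 to 7.61), and at 5 or more it was 10 of 108 (9.26%, 5.11 to 16.2). In overlapping regions of the same bins the share stayed between 0.826% and 1.45%. Fold did not enter the search for the element, but the 108 regions of the last bin are few and the interval is wide. The words obtained by reading the element backwards without complementing it, a control with the same bases, were in 1.29% of the isolated regions (1.03 to 1.62) and in 1.49% at equal pileup. With bases marked as repeat left out, the element was in 2.56% (2.18 to 3.01) of the isolated regions, compared with 1.02%.

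**Figure D2:**
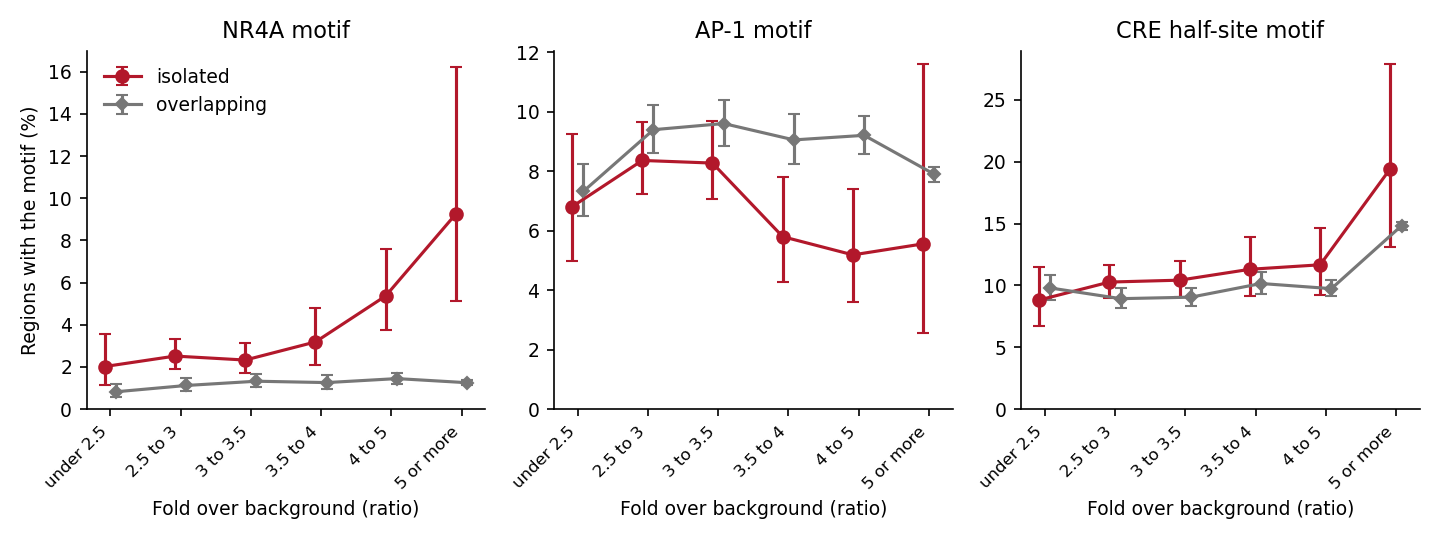
Share of regions (vertical axes, percent) with the NR4A element, the AP-1 word and the CRE half-site within 100 bases of the summit in isolated and overlapping CREBfl/fl regions, by fold over background (horizontal axes, the authors' ratio); bars are Wilson 95% intervals. The NR4A share of isolated regions was 2.02% in the first bin and 9.26% in the last, while it stayed at or under 1.45% in overlapping regions.

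The 162 isolated regions with the NR4A element lay mostly in introns (58.6%) and between genes (29.0%), and 5 were at promoters. Their nearest start site was at a median of 27.5 kb. The window is wider than most isolated regions, and the element lay inside the called region in 124 of them (76.5%, 69.5 to 82.4). In 100 of them (61.7%, 54.1 to 68.9) the element was within 50 bases of the summit, compared with 50.7% in overlapping regions at equal pileup. The CRE half-site was present in 16 of them (9.88%, 6.17 to 15.4), a share whose interval includes the 10.6% of all isolated regions, while the AP-1 word was in 25 (15.4%, 10.7 to 21.8), compared with 7.50% of all isolated regions.

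Among them, the region in an exon of Ly75 (chr2:60370189-60370678), which encodes the endocytic receptor DEC-205, had a pileup of 84 and a fold of 8.41, with a gap of 4.55 kb. The region in an intron of Rgs9 (chr11:109275441-109275637), a regulator of G protein signaling, had a pileup of 74 and a fold of 7.94, and its window held the CRE half-site as well. The region 12.6 kb upstream of Xpo6 (chr7:126212855-126213279), an exportin, had a pileup of 71 and a fold of 7.62. All 3 were also among the 15 isolated regions with the largest folds of any sequence.
A region 79.4 kb upstream of Peli2 (chr14:48041303-48041566), which encodes a Pellino ubiquitin ligase, had a pileup of 64 and a gap of 79.2 kb. In an intron of Plcl2 (chr17:50636081-50636478) the pileup was 76 with a fold of 6.41. Near Cd83 (chr13:43820258-43820468), 35.6 kb downstream of the start site of this activation marker, it was 52 with a fold of 5.61. A region 144 kb upstream of Cblb (chr16:51887429-51887709), which encodes a ubiquitin ligase that restrains T cell activation, had a pileup of 51 and held an AP-1 word and the half-site as well.

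The CRE and its half-site were more frequent in isolated regions than at equal pileup. The whole CRE was in 37 isolated regions (0.662%, 0.481 to 0.912), compared with 0.326% in overlapping regions and 0.410% in all regions at the same pileups. It was more frequent in all CREBfl/fl regions (0.835%), most of which are stronger. Isolated regions of Foxp3creCREBfl/fl Tregs held it in 3 of 2136 (0.140%, 0.0478 to 0.412), compared with 0.353% in overlapping regions at their pileups. The CRE lay inside the called region in 33 of the 37. In 32 of them (86.5%, 72.0 to 94.1) it lay within 50 bases of the summit, compared with 68.6% at equal pileup. The CRE read backwards, as a control, was in 0.895% (0.680 to 1.18) and 0.717%. The half-site was in 593 isolated regions (10.6%, 9.84 to 11.5), compared with 8.31% in overlapping and 9.05% in all regions at equal pileup. Its share was 19.4% (13.1 to 27.9) in the 108 isolated regions with a fold of at least 5, an interval that includes the 14.8% of overlapping regions in this bin. The half-site read backwards was in 42.5% of the isolated regions (41.2 to 43.8) and in 39.3% at equal pileup, so that a word of these bases without the CG also had a higher share. The 8621 CREBfl/fl regions without an overlap but within 2 kb of a Foxp3creCREBfl/fl region had a similar share of the half-site. It was 10.6% (9.92 to 11.2), compared with 9.26% in overlapping regions at their pileups. The whole CRE was in 0.360% of them (0.253 to 0.510), compared with 0.421%.

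Of the isolated regions with a CRE, 6 were at promoters. The strongest at the genome background was 63.9 kb from the start site of Tmem100 (chr11:90094089-90094299), with a pileup of 75, a fold of 8.05 and a gap of 41.0 kb. The region near Slc7a13 (chr4:19844207-19844358) had a pileup of 65 and a fold of 6.99. The promoter of Clstn3 (chr6:124464701-124464883), which encodes calsyntenin 3, a synaptic cadherin, had the same pileup of 65, its summit 9 bp from the start site and a gap of 15.5 kb. At 31.0 kb upstream of Dapp1 (chr3:138012543-138012662), which encodes an adaptor of antigen receptor signaling, the pileup was 77 over a background of 17.2. The region 3.45 kb from the start of Socs1 (chr16:10782085-10782168) had its CRE outside the called bases and a pileup of 178, but over a local background of 127, and its fold was 1.40. There the surroundings were open as well, and the call rests on a small excess.

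**Figure D3:**
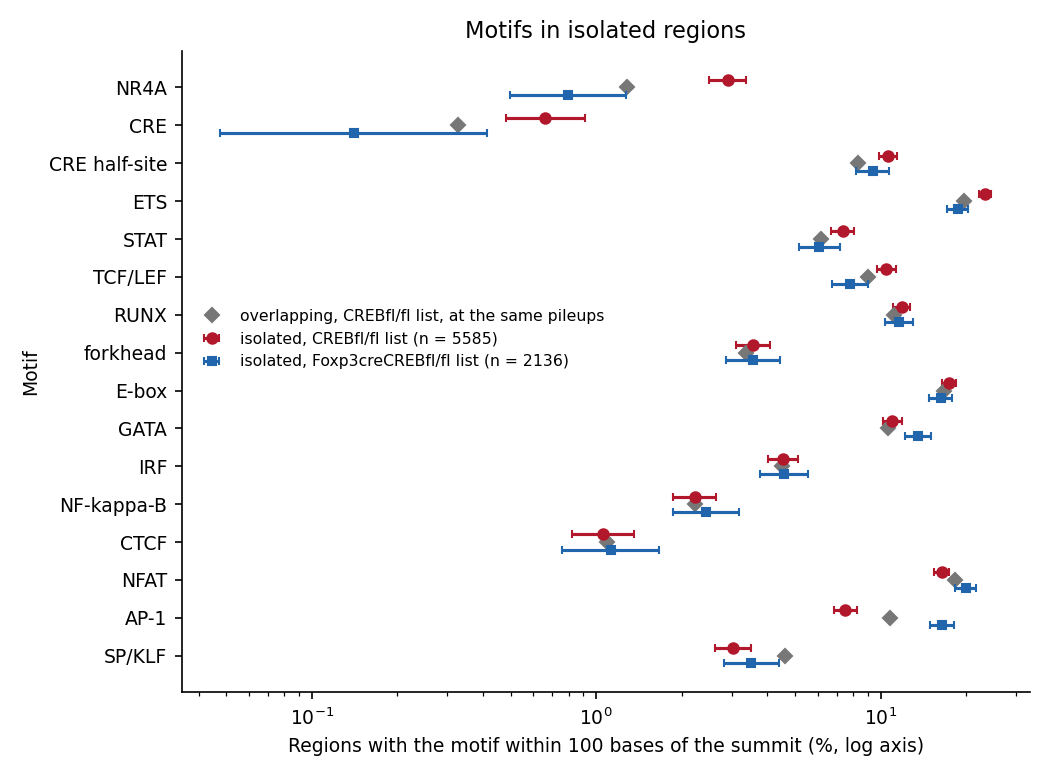
Share of regions with each motif within 100 bases of the summit (horizontal axis, percent, log scale) by motif (vertical axis) in isolated CREBfl/fl regions, in overlapping CREBfl/fl regions at the same pileups and in isolated Foxp3creCREBfl/fl regions; bars are Wilson 95% intervals. NR4A and CRE are at the top with ratios of 2.27 and 2.03 to equal pileup, and for AP-1 the isolated regions of the 2 groups lie on opposite sides of the grey point.

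AP-1 words, bound by FOS, JUN and BATF proteins, were less frequent in isolated CREBfl/fl regions and more frequent in isolated Foxp3creCREBfl/fl regions. They were in 419 isolated CREBfl/fl regions (7.50%, 6.84 to 8.22), compared with 10.8% in overlapping and 8.68% in all regions at equal pileup. In isolated Foxp3creCREBfl/fl regions they were in 351 (16.4%, 14.9 to 18.1), compared with 7.997% in overlapping and 9.06% in all Foxp3creCREBfl/fl regions at equal pileup. The 7.97% of all CREBfl/fl regions of any height lay within the interval of the isolated ones. Of the 8621 CREBfl/fl regions without an overlap but within 2 kb of a Foxp3creCREBfl/fl region, 5.36% (4.90 to 5.85) held AP-1 words. Overlapping regions at the pileups of these 8621 held them in 9.91%. ETS words were in 23.3% of the isolated CREBfl/fl regions (22.2 to 24.5), compared with 19.6% at equal pileup, and TCF/LEF words in 10.5% (9.68 to 11.3), compared with 9.03%. STAT words were in 7.36% of the isolated CREBfl/fl regions (6.70 to 8.07), compared with 6.19% in overlapping and 6.70% in all regions at equal pileup. The last share lies just inside the interval, at its lower end. NFAT words were less frequent, with 16.4% (15.4 to 17.4) compared with 18.3% in overlapping and 17.8% in all regions at equal pileup. In overlapping regions re-weighted to the folds instead, the NFAT share was 17.0%, which lies within the interval. SP/KLF words were also less frequent, with 3.03% (2.61 to 3.51) compared with 4.60%, but place was not matched. Promoters were 4.51% of the isolated regions and 9.98% at equal pileup. For RUNX, CTCF, GATA, E-box, forkhead, IRF and NF-kappa-B words the share at equal pileup lay within the interval of the isolated regions. With 16 motifs, some are expected outside their interval by counting error alone.

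The isolated regions with the largest folds are described next. They were ranked by fold after the values were seen, because the largest pileups fell on high local backgrounds. The region in the intron of Snd1 (chr6:28929192-28929735) had a pileup of 221, a fold of 19.7 and a width of 544 bp. No Foxp3creCREBfl/fl region lay within 19.6 kb, and of the printed window 62.7% was marked as repeat. A neighbour at chr6:28931816-28932213 was isolated too, with a pileup of 80 and a fold of 6.58. Within 50 kb of the first, the other 2 CREBfl/fl regions overlapped Foxp3creCREBfl/fl regions.
In an intron of Pla2r1 (chr2:60504765-60505134), which encodes the phospholipase A2 receptor, the pileup was 103 and the fold 11.01. Within 50 kb the 3 CREBfl/fl regions were all isolated, and 0 Foxp3creCREBfl/fl regions were called. In a coding exon of Cwc27 (chr13:104661129-104661529), which encodes a spliceosomal cyclophilin, the pileup was 95 and the fold 10.2, with a gap of 13.7 kb. A region 8.97 kb upstream of Nmi (chr2:51982357-51982778), an interferon-induced partner of MYC and STAT proteins, had a pileup of 83 and a fold of 8.89. A region 36.4 kb upstream of Smad7, an inhibitor of TGF-β signaling, had a pileup of 77 and a fold of 8.26, and it belonged to a group of 6 isolated regions on 52.1 kb. Among regulators of T cells, an intron of Rora (chr9:69110853-69111034) had a pileup of 66 with a fold of 7.09, and an intron of Bach2 (chr4:32314876-32315048) one of 62 with a fold of 6.35.

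**Figure D4:**
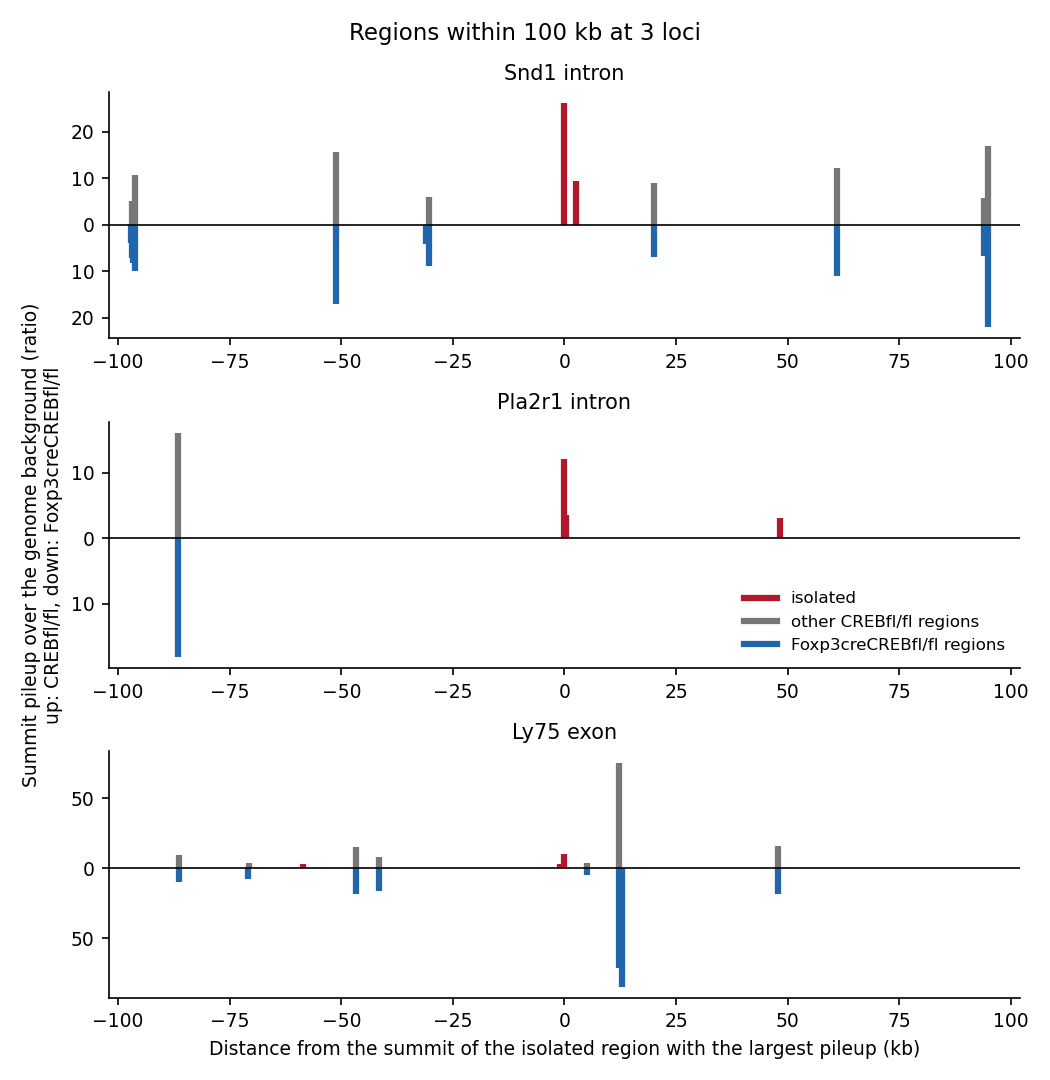
Pileup at the summit as a ratio to the genome background (vertical axes; upwards the CREBfl/fl list, downwards the Foxp3creCREBfl/fl list) against the distance in kb from the isolated region in Snd1, Pla2r1 or Ly75 (horizontal axes). Each bar is 1 region; there is no bar of the Foxp3creCREBfl/fl list under the isolated regions, whose pileups were 221, 103 and 84, and each grey region has a counterpart. At Pla2r1 the only grey region lies on the left, and the regions on the right are isolated.

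By pileup instead of fold, the isolated regions at the top stood on the flanks of open chromatin. Of the 15 largest, only the region in Snd1 had a background close to that of the genome. The largest, upstream of Sfi1 in an exon of Drg1, had a pileup of 281 over a background of 203 and a fold of 1.38. In an intron of Dusp4, which encodes a MAP kinase phosphatase, regions had pileups of 243 and 192 with folds of 2.06 and 2.30, and a weaker one beyond the gene had 43. At Tnp2, a sperm chromatin gene next to Socs1, promoter regions had pileups of 219 and 208 with folds of 1.77 and 1.68. Others were in Sp3 (223), Zbtb7a (205), Ppm1h (169) and Rbl2 (169) and near Zfp78 (181), Tmpo (178), Socs1 (178) and Thrap3 (174), with folds from 1.40 to 2.85. Their gaps were between 2.02 and 2.88 kb except at Snd1, so that a Foxp3creCREBfl/fl region stood just beyond the limit of the rule.

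At promoters, most of the isolated regions with the largest pileups had low folds. Beside Tnp2, the largest pileups were 150 and 130 at Gpr146, 122 at Rhbdl1, 91 at Zfp516 and at Plaur, which encodes the urokinase receptor, 85 at the glycolytic gene Eno1, 84 at 9930022D16Rik and 78 at Spg20. Of these, 9930022D16Rik had the largest fold, 7.64, and the others had folds of 3.18 or less. Promoters with a background close to that of the genome, named after their values were seen, included Slc2a12, a glucose transporter gene with isolated regions of pileup 52 and 44 and a gap of 54.6 kb from the first, Ednrb, the gene of an endothelin receptor, with 51, and Flrt3 with 45 and a gap of 113 kb. The 5 widest isolated regions were 875 bp near Arglu1 (pileup 50), 643 bp in Baz2b (55), 544 bp in Snd1, 542 bp in Snx29 (69) and 502 bp near Gm8439 (73).

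Isolated regions were found in or within 10 kb of 3323 of 18793 protein-coding genes (17.7%), and 66 genes had 5 or more. Genes were ranked by count, and the share over all CREBfl/fl regions was 6.43%. The most were counted in very long gene models, 26 of 427 CREBfl/fl regions in Gm20388 (6.09%) and 19 of 169 in Fgfr2 (11.2%). These span 4435 and 2961 kb. In Mad1l1, a gene of the spindle checkpoint, 14 of 32 regions were isolated (43.8%), with pileups from 20 to 47. In Dock2, which encodes a Rac activator of lymphocytes, there were 12 of 52 (23.1%). In Rora, the gene of a nuclear receptor that effector Tregs of tissues express, there were 11 of 59 (18.6%), with pileups from 22 to 66 spread over the gene, while 45 overlapped. The others were Inpp4b (9 of 171), Fhit (9 of 32), Btbd9 (8 of 42), Mgmt (8 of 11) and the protocadherin model Gm42416 (8 of 33). Another 6 genes also had 8, namely Ift80, Foxn3, Hdac9, Pcdhga1 and the models Gm37013 and Gm37388, of which the last 3 share the protocadherin regions with Gm42416.
The 8 isolated regions of Mgmt, which encodes a DNA repair methyltransferase, had pileups from 26 to 42 and followed one another over 161 kb with no other CREBfl/fl region between them. They were weak, but all stood on the genome background.

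Most isolated regions had no other isolated region as a direct neighbour. Their neighbours then either overlapped a Foxp3creCREBfl/fl region or had one within 2 kb. When neighbouring CREBfl/fl regions were followed along the chromosomes, 3700 isolated regions (66.2%) had no isolated neighbour and 811 runs of at least 2 were found. The longest held 9 regions on 72.6 kb of chromosome 4 over Zfp985 and toward Zfp979 (pileups 23 to 34). Then came the run in Mgmt, 8 regions on 23.1 kb of chromosome 4 toward Zfp990 (26 to 39), and runs of 6 in Hip1, within Mad1l1 and from Elfn1 into Mad1l1. The chromosome 4 runs lie in clusters of zinc-finger genes in many near-identical copies, where reads cannot always be placed. The part of read placement in these runs was not tested. The 2 bins of 1 Mb with the most isolated regions were in these clusters, with 19 of 81 and 19 of 94 CREBfl/fl regions. Within 50 kb of another isolated region lay 2811 (50.3%). How these counts compare with an even scatter of isolated regions at their share of 6.43% was not tested. By chromosome the share ranged from 5.44% on chromosome 11 to 8.07% on chromosome 18.

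Across 13 lists of genes, chosen for Tregs, other T cells, CREB and other blood cells, isolated regions were less frequent than in general. In or within 10 kb of 200 genes, 117 of 2629 CREBfl/fl regions were isolated (4.45%, 3.73 to 5.31), compared with 6.43% of all regions and with 7.01% of all regions at the same folds. By the rule, windows dense in Foxp3creCREBfl/fl regions leave less room for isolated ones. The density of regions was not matched, so these shares cannot be read as a trait of the genes. The smallest share was in T helper lineage genes, with 2 of 148 regions (1.35%), 1 each at Il12rb2 and Stat3. Genes of the T cell receptor and costimulation had 17 of 487 (3.49%, 2.19 to 5.52). The most were at Prkcq, the gene of protein kinase C theta, with 5 and pileups up to 70, then at Fyn with 3, and at Lat, Nfatc2 and Cblb with 2 each. Genes of naive and central T cells had 26 of 598 (4.35%, 2.98 to 6.29). Here Bach2, a repressor that restrains effector differentiation, had 6 of 93 (6.45%), and Lef1, Foxo1 and Foxp1 had 4 each.
In the Treg identity list 11 of 222 regions were isolated (4.95%). They included 3 at Gpr83, with pileups of 41, 90 and 98 and folds up to 2.79, and 3 at Nrp1, with pileups of 23 to 31. The gene of the integrin Itgb8, which activates TGF-β, had isolated intronic regions of 57 and 68 with folds of 3.15 and 4.44, and Il2ra had 1 of 27, with a pileup of 44. In the list of effector and tissue Tregs, 14 of 271 were isolated (5.17%), 11 of them at Rora, 2 at Ikzf3 and 1 at Areg, while Klrg1, Batf, Gata3, Irf4 and Prdm1 had 0.

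Genes of the CREB family and its coactivators had 7 of 169 (4.14%), 3 of them at Sik3, which encodes a kinase that restrains CREB coactivators, and 1 each at Crtc3, Crebbp, Prkacb and Adcy7. Classical CREB targets had 14 of 226 (6.19%, 3.73 to 10.1), close to the 6.45% of all regions at the same folds. They lay at the phosphodiesterase genes Pde4b (4), Pde4d (3) and Pde3b (2), at Dusp4 (3), and at Dusp1 and Fos with 1 each, while Nr4a2, Nr4a3, Fosb, Junb, Egr1 and Crem had 0. Genes of cytokine and TGF-β signaling had 14 of 281 (4.98%), with 5 of 10 at Socs1, 2 each at Stat5a and Smad7, and 1 at Stat5b, among others. The AP-1 and BATF list had 7 of 195 (3.59%), 6 of them at Bach2 and 1 at Fos.

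**Figure D5:**
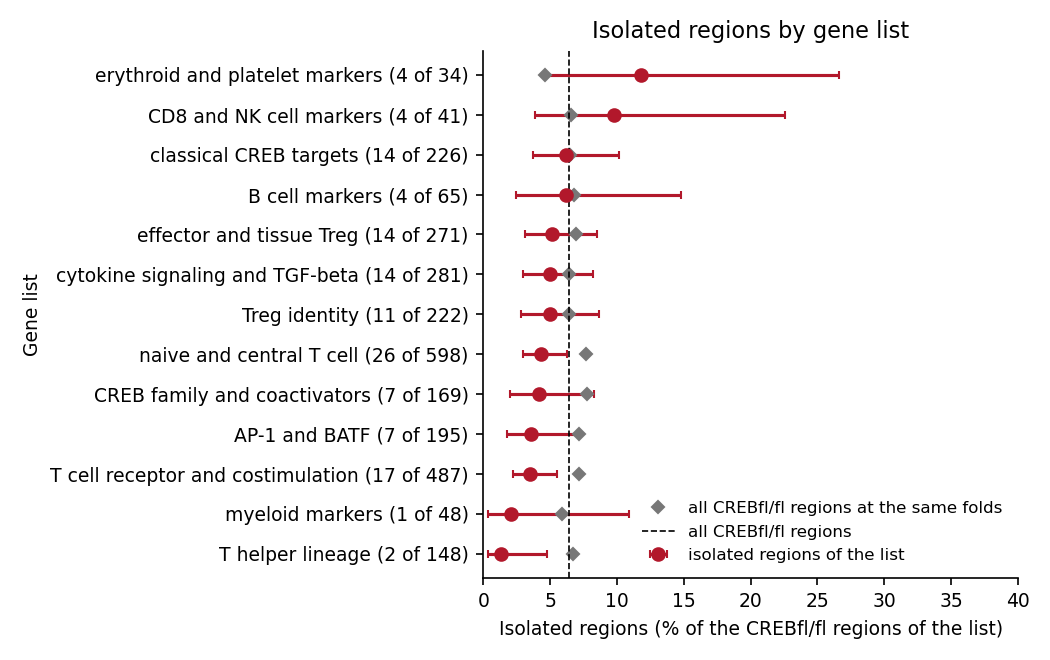
Share of isolated regions among the CREBfl/fl regions in or within 10 kb of the genes of each list (horizontal axis, percent) by gene list (vertical axis); bars are Wilson 95% intervals, diamonds are all CREBfl/fl regions at the same folds and the dashed line is the 6.43% of all regions. T helper genes had the lowest share with 1.35%, and the high shares of CD8 and NK cell and of erythroid and platelet markers rest on 4 regions each.

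Markers of other blood cells were measured for the mix of cells. Of 188 CREBfl/fl regions at these genes, 13 were isolated (6.91%, 4.09 to 11.5). Erythroid and platelet markers had 4 of 34 (11.8%, 4.67 to 26.6), at Gfi1b (2), Tal1 and Gp9. The region 7.23 kb upstream of the platelet gene Gp9 had a pileup of 53 and a fold of 5.72. CD8 and NK cell markers had 4 of 41 (9.76%), at Cd8b1 (2), Cd8a and Klrk1. B cell markers had 4 of 65 (6.15%), at Blnk (3) and Bank1, and myeloid markers had 1 of 48 (2.08%), at Lyz2. The summed pileups over the genome background in these windows were 1112 in CREBfl/fl and 1240 in Foxp3creCREBfl/fl for B cell markers, 1505 and 1695 for myeloid, 746 and 838 for CD8 and NK cell, and 945 and 1048 for erythroid and platelet markers. Each sum was thus somewhat larger in Foxp3creCREBfl/fl, by a similar factor in every list. The sums depend on the genome background of each group, and none is given for Treg genes or for all regions. A difference in the mix of cells can therefore not be read from them. Most lists had a region within 1 kb of the start site of many of their genes. This was so for 8 of 11 B cell genes in CREBfl/fl and 6 in Foxp3creCREBfl/fl, for 7 of 13 myeloid genes in both, for 9 of 12 CD8 and NK cell genes and 8 in Foxp3creCREBfl/fl, and for 6 of 12 erythroid and platelet genes in both. Genes with none in either list included Cd79a, Csf1r, Lyz2, Cd8a, Ncr1, Gp9 and the globin genes. The part of other cells in the isolated regions was not tested.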

How the data were processed

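ATAC-seq libraries of splenic Tregs were trimmed by the authors with Trim Galore, aligned with Bowtie2, freed of duplicates, filtered with SAMtools and called with MACS2, per the methods. Their versions are not stated. The deposited lists, 1 per group, hold for each peak a score, the fold over background as a ratio, and p and q values as −log10, all made by the authors. How the libraries were joined before calling is not stated. The methods name mm9, but positions were read as GRCm38: 58.1% of 46911 protein-coding start sites had a CREBfl/fl region within 1 kb, compared with 14.1% after a shift of 100 kb, and 0 of 195270 peaks passed a chromosome end. The methods name calling without local background, yet backgrounds above that of the genome were found. The labels name the groups WT and KO; these were taken as CREBfl/fl and Foxp3creCREBfl/fl from the study's design.

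Pileup and background were recovered from fold and p (within 0.002 on the −log10 scale) for 100% of the isolated regions. The number of fragments per library is unknown, and the genome backgrounds stand for the depth of the lists. Touching peaks would have been merged, but there were 0. Genes are from GENCODE vM21 and sequences from the RefSeq GRCm38 genome. Re-weighting used 10 bins of pileup. Python 3.11.15, numpy 2.4.6, pandas 2.3.3, scipy 1.17.1 and matplotlib 3.10.9 were used, and the recovery of pileups, gaps, merging, re-weighting and motif search were tested on simulated data. No p-value is given, since there is 1 list per group.

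The members and the gene and motif lists were chosen with earlier results of these data known. Named are the 15 isolated regions and the 10 promoter ones with the largest pileup, the 10 genes with the most (6 more were tied with the last), up to 4 genes per list, the 5 widest, the 5 longest runs and the 5 CRE regions with the largest pileup. No sequence from chromosome 18 is printed. Of the 15, 1 region is not reported here. Regions ranked by fold, regions with the NR4A element and other genes were named after their values were seen. Alternatives chosen after seeing the data were the restriction to regions on the genome background, re-weighting on fold, all regions as reference, unmasked bases and words read backwards.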

Additional observations from a re-analysis of the deposited data

How the results depend on the processing

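With 1 list per group, the spread between mice is unknown, and absence from the Foxp3creCREBfl/fl list is not absence of signal. With no overlap as the sole condition there were 14206 regions (median pileup 33, width 106 bp, 16635.5 bp to a start site, 13.2% promoters). With 5 kb there were 3704 (pileup 29, 25697 bp), and with 10 kb 2035 (pileup 29, width 106 bp, 34650 bp). Keeping −log10 q of at least 10 left 981 (pileup 42, width 133 bp, 21071 bp, 3.87% promoters), and a −log10 p of at least 8 at the depth of the Foxp3creCREBfl/fl list left 964 (pileup 42, width 133 bp, 21190 bp, 3.84% promoters). Isolated regions on the genome background had a median pileup of 29 and were 26262.5 bp from a start site. A promoter distance of 500 bp gave 3.38%, and start sites of every gene gave 10.9% and 9257 bp. Joining at 20 kb left 33.3% with another isolated region nearby. The share at equal pileup lay outside the interval for 9 motifs, and for 7 to 12 under the alternatives. The difference for TCF/LEF turned to -0.26 points with the whole region searched, and that for STAT to -0.14 points in the 964 regions. Of motifs whose share at equal pileup lay within the interval, RUNX turned from 0.70 to -1.34 points with the whole region searched and to -1.51 in the 964 regions, but was 2.17 when re-weighted on fold, and with the whole region GATA turned to -1.44 and the E-box to -1.95. The half-site difference ranged from 0.74 to 4.69 points, and 26 motif differences moved. The cause was not tested. The differences for NR4A, CRE, its half-site, ETS and AP-1 kept their direction under the 6 alternatives run on them. The other 26 main values were labelled as unchanged. These include counts of 4348 isolated regions on the genome background and 6538 on all chromosomes, compared with 5585. No paired analysis was possible because each group has 1 list, and no library could be left out.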
